A study of Mus musculus with 22 samples.

Results

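The 9 genes described here encode the D-type cyclins (Ccnd1, Ccnd2, Ccnd3), the E-type cyclins (Ccne1, Ccne2), the Cip/Kip inhibitors Cdkn1a (p21) and Cdkn1b (p27), and the Ink4 inhibitors Cdkn2a (p16Ink4a and Arf) and Cdkn2b (p15Ink4b). They were chosen by name as the G1 cyclins and the inhibitors of their kinases, with earlier results of these data known. Of the 9, 8 were measured among 19938 genes. Cdkn1a was represented only by a probe set that the platform annotation assigns to 2 genes, Cdkn1a and 4930567H12Rik, so no level is given for it. D-type cyclins activate Cdk4 and Cdk6 in response to growth signals, E-type cyclins activate Cdk2, and both kinase classes phosphorylate the retinoblastoma family and so release E2F transcription factors for entry into S phase. Ink4 proteins bind Cdk4 and Cdk6, whereas Cip/Kip proteins bind cyclin-kinase complexes and restrain Cdk2. Mouse pluripotent stem cells are known for a short G1 phase with high E-type cyclin and Cdk2 activity and little dependence on D-type cyclins.

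RNA of mouse embryonic germ (EG) lines and of embryonic stem (ES) lines was measured in 22 samples, with 1 Affymetrix mouse gene array each. EG cells are pluripotent cells that grow out of primordial germ cells, here of day 8.5 embryos, and ES cells grow out of the preimplantation embryo. EG 2i lines (n = 4, 3 female) were derived directly in 2i medium, EG 2is lines (n = 4, 2 female) spent 2 days in fetal calf serum (FCS) medium before 2i, and EG FCS lines (n = 4, 1 female) stayed in FCS medium. ES 2i lines (n = 5, 2 female) and ES FCS lines (n = 5, 2 female) were kept in those media, and the series text says that ES lines, once established, changed between these media as well. All lines, in every group, are labelled 129SvEv x Oct4-delta-PE-GFP transgenic, with a mixed background, a transgene in which part of the Oct4 regulatory region drives GFP. 2i medium combined N2B27, PD0325901, which inhibits MEK, CHIR99021, which inhibits GSK3, and leukaemia inhibitory factor (LIF), over laminin, whereas FCS medium held serum and LIF and its cells grew on mouse embryonic fibroblast feeders. Inhibitors, serum and feeder cells therefore changed together and their parts cannot be told apart. The cell type label reads EGCs on all 10 ES samples, whose titles and source names say ES, and they were treated as ES lines. ES samples that carry the same number in 2i and FCS share labelled sex and batch in every case. Whether they are the same line is not known, and the main fit treats them as unpaired. Nothing states that samples of a group were separate cultures, so the p-values speak only of the spread among these samples.

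Values are log2 RMA expression values, with array medians of 5.54 to 5.62. Within a group, arrays had a Pearson r of 0.982 to 0.998, and 0 pairs were identical. Precision is limited by how many arrays each group has. As a background level the highest value of the Y-linked gene Eif2s3y in a female line was taken, 4.88, under which 23.7% of genes had their mean and 0 of the 8 measured members did. The pluripotent cell markers (Pou5f1, Sox2, Nanog, Zfp42, Esrrb, Dppa5a, Tdgf1, Utf1) averaged 11.04 in EG 2i, 11.04 in EG 2is, 11.36 in EG FCS, 11.11 in ES 2i and 11.29 in ES FCS lines, with 0 of 8 under background in any group. Levels on an array do not compare between genes, since each probe set has its own brightness, so each member is set only against itself in other samples. In samples of many cells, fewer cells of a type and less RNA per cell cannot be told apart.

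RefSeq promoters (GRCm38.p6, 250 bases before to 50 after a transcript start) were matched by symbol for 6 of the 9 genes, with 9 promoters in all. They are shown for Ccne1 and Cdkn1b, the cyclin and the inhibitor with large shifts in opposite directions between the cultures, and for both starts of Cdkn2a, whose transcripts encode different proteins but share the value measured here. Sequences run 5′ to 3′ on the gene's strand in lower case, and capitals mark a match to an E2F site. The motifs searched, on both strands, were TTTCCCGC, TTTGGCGC, TTTCGCGC and TTTGCCGC, with no overlap between matches in these promoters.
Ccne1, chr7:38107441-38107740, minus strand: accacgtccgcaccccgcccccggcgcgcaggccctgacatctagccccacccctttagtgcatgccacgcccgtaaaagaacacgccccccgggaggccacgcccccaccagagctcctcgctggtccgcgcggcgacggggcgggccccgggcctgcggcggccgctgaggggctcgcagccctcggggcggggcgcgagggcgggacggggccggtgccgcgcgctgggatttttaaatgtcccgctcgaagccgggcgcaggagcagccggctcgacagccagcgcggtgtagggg
Cdkn1b, chr6:134920151-134920450, plus strand: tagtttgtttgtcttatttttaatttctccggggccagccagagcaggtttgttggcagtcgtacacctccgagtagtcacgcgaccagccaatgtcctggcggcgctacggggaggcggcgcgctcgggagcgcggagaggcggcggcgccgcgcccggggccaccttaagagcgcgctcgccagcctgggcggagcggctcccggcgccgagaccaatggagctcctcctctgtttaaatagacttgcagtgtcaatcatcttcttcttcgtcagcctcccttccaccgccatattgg
Cdkn2a, upstream start (Arf), chr4:89294570-89294869, minus strand: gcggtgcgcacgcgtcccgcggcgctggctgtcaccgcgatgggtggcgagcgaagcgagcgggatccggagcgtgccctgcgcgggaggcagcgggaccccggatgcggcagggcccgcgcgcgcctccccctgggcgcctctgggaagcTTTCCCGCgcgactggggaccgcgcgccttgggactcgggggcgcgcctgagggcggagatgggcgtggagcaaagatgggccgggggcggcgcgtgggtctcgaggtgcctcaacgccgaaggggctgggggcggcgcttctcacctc
Cdkn2a, downstream start (Ink4a), chr4:89282143-89282442, minus strand: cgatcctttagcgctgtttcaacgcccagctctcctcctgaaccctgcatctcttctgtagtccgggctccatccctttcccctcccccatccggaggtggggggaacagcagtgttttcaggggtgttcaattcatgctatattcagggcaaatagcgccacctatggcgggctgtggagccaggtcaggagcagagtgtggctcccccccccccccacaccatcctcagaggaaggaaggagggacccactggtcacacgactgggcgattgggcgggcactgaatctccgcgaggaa
Of the 9 promoters only the upstream Cdkn2a promoter held a match, TTTCCCGC, at offset −99 from the start. Among all 32851 promoters of 300 bases in the table, 744 (2.26%) held a match to any of the 4 motifs. The Ccne1 promoter held 41 CpG dinucleotides and 76% G or C, the Cdkn1b promoter 30 and 62%, the upstream Cdkn2a promoter 45 and 77%, and the downstream Cdkn2a promoter 12 and 60.3%, against a median of 7 and 52.7% over all promoters. A missing match says only that these letters are not in this window.

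The culture comparisons asked which of these genes differ between 2i and FCS. A gene was called where limma's p, adjusted by Benjamini-Hochberg over all genes, was under 0.05. In EG 2i against EG FCS lines 5 of 8 measured members were called, where 23.9% of all genes were. Of these 2 were higher and 3 lower in 2i, against 11.4% and 12.5% of all genes. The EG 2is against EG FCS comparison called 6 of 8, against 25.6% of all genes, with 3 higher and 3 lower, against 12.7% and 12.9%. The ES 2i against ES FCS comparison called 6 of 8, against 31.6% of all genes, with 2 higher and 4 lower, against 16.6% and 14.9%. The cyclins Ccne1, Ccne2 and Ccnd2 fell and the inhibitors Cdkn1b and Cdkn2a rose in each of these comparisons. The EG 2i and EG 2is comparisons share their EG FCS lines, so they are not separate evidence. Since the members were chosen with earlier results of these data known, the counts only describe them.

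**Figure D1:**
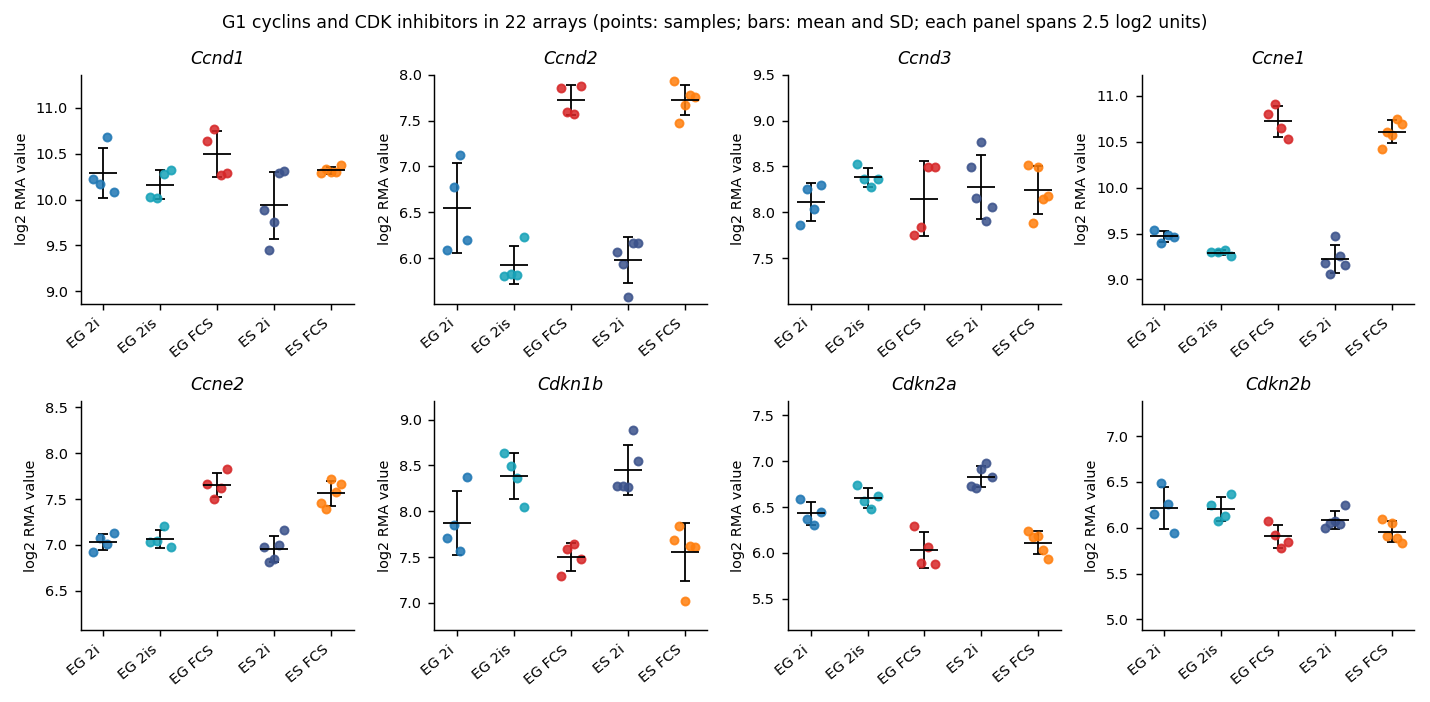
Log2 expression of the 8 measured members (1 panel each, with every y axis of the same span) in EG 2i, EG 2is, EG FCS, ES 2i and ES FCS lines, with points for samples and bars for mean ± SD (n = 4, 4, 4, 5 and 5). For Ccne1, Ccne2 and Ccnd2 all 2i and 2is samples lie under the FCS samples of the same origin, and for Cdkn2a all lie above.

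**Figure D2:**
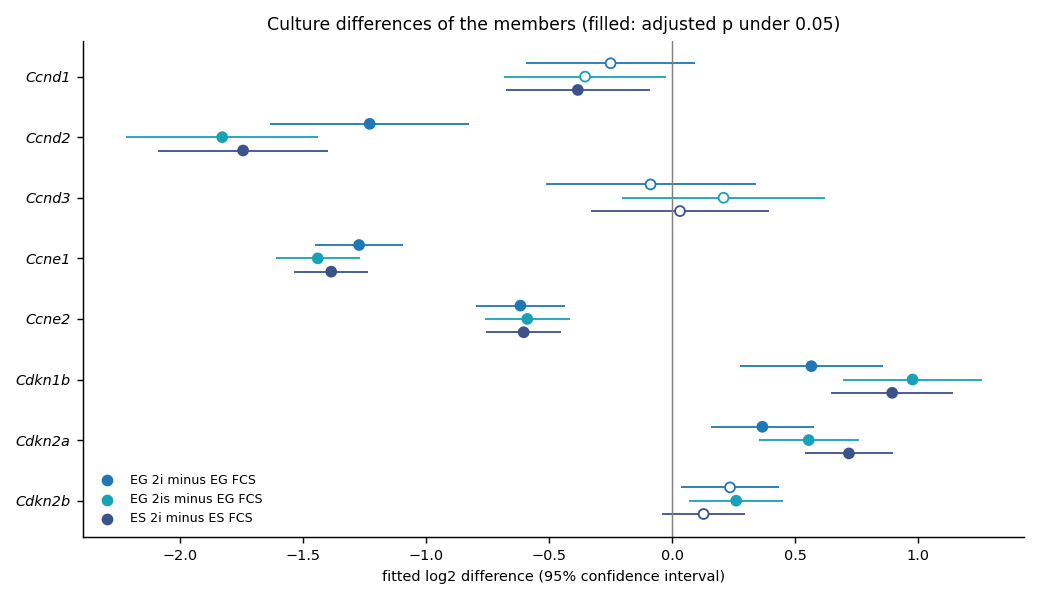
Fitted log2 differences with 95% confidence intervals for EG 2i minus EG FCS, EG 2is minus EG FCS and ES 2i minus ES FCS, by member, with filled symbols for adjusted p under 0.05. Ccne1 lies between −1.44 and −1.27 in the 3 comparisons, while the intervals of Ccnd3 span 0 in all 3.

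Ccne1, the E-type cyclin gene on chromosome 7 (GRCm38.p6, chr7:38097984-38107490, minus strand), was lower in every 2i line. Its log2 values were 9.54, 9.40, 9.48 and 9.46 in EG 2i lines, against 10.81, 10.91, 10.66 and 10.53 in EG FCS lines. EG 2is lines had 9.29, 9.30, 9.32 and 9.25. In ES 2i lines it was 9.18, 9.05, 9.47, 9.25 and 9.16, against 10.42, 10.61, 10.58, 10.74 and 10.69 in ES FCS lines. The highest 2i or 2is value lay far under the lowest FCS value, with no overlap in either origin. The fitted difference, adjusted for labelled batch and sex, was −1.27 in EG 2i lines (SE 0.09, 2.42-fold lower, limma adjusted p = 7.84e-09). It was −1.44 in EG 2is lines (SE 0.08, 2.71-fold lower, limma adjusted p = 5.99e-10). In ES 2i lines it was −1.39 (SE 0.07, 2.61-fold lower, limma adjusted p = 1.76e-10). These calls held under every alternative run, and within batch 1 and batch 2 the ES difference was −1.40 and −1.38.

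Ccne2, the second E-type cyclin gene (chr4:11190433-11204779), moved in the same direction by less than Ccne1 on the log2 scale. Its values were 6.92, 7.07, 7.01 and 7.13 in EG 2i lines and 7.03, 7.04, 7.21 and 6.97 in EG 2is lines, against 7.66, 7.50, 7.62 and 7.83 in EG FCS lines. The ES 2i lines had 6.97, 6.81, 6.84, 6.999 and 7.16, against 7.46, 7.39, 7.72, 7.57 and 7.66 in ES FCS lines. No 2i or 2is sample reached an FCS sample of its origin. The fitted difference was −0.62 in EG 2i lines (SE 0.09, 1.53-fold lower, limma adjusted p = 3.25e-05), −0.59 in EG 2is lines (SE 0.08, limma adjusted p = 2.60e-05) and −0.60 in ES 2i lines (SE 0.07, limma adjusted p = 3.25e-06). With the mean feeder marker level of each array as a further term, the Ccne2 differences were −0.31, −0.28 and −0.32 and none was called (adjusted p = 0.202, 0.257 and 0.113).

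Ccnd2, a D-type cyclin gene (chr6:127125162-127152188), showed the largest fitted difference of the 8 members in EG 2is and ES 2i lines. EG 2i lines had log2 values of 6.09, 6.78, 7.13 and 6.20 and EG 2is lines 5.81, 5.83, 5.82 and 6.23, against 7.85, 7.59, 7.57 and 7.88 in EG FCS lines. ES 2i lines had 6.06, 5.93, 5.57, 6.16 and 6.17, against 7.93, 7.48, 7.66, 7.78 and 7.76 in ES FCS lines. The FCS lines of both origins stood together and above all others, and the EG 2i lines were the most spread, with lines 2 and 3 above the rest. The fitted difference was −1.23 in EG 2i lines (SE 0.19, 2.34-fold lower, limma adjusted p = 1.13e-04), −1.83 in EG 2is lines (SE 0.19, 3.55-fold lower, limma adjusted p = 7.29e-07) and −1.74 in ES 2i lines (SE 0.17, 3.35-fold lower, limma adjusted p = 1.89e-07). Within ES batches 1 and 2 it was −1.71 and −1.77. With feeder marker level added to the fit it was −0.75 in EG 2i lines (adjusted p = 0.199), −1.34 in EG 2is lines (adjusted p = 0.0163) and −1.31 in ES 2i lines (adjusted p = 0.00849).

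Ccnd1, the D-type cyclin gene known as a target of mitogen signalling and of beta-catenin (chr7:144929931-144939831), differed little in the main fit. It stood at 10.22, 10.17, 10.68 and 10.08 in EG 2i lines and 10.03, 10.02, 10.28 and 10.32 in EG 2is lines, against 10.64, 10.77, 10.27 and 10.29 in EG FCS lines. In ES 2i lines it stood at 9.89, 9.45, 9.75, 10.29 and 10.31, against 10.29, 10.34, 10.30, 10.30 and 10.38 in ES FCS lines. All 3 pairs of groups overlapped, and in ES 2i lines 3 samples lay under the ES FCS range while the other 2 lay within it. The fitted difference was −0.25 in EG 2i lines (95% interval −0.59 to 0.09, limma adjusted p = 0.306) and −0.35 in EG 2is lines (95% interval −0.68 to −0.02, limma adjusted p = 0.112). The EG 2is difference was called in a fit of only the groups compared (−0.39, adjusted p = 0.0351) and in batch 1 alone (−0.39, adjusted p = 0.0385). In ES lines Ccnd1 fell by 0.38 (SE 0.14, 1.30-fold, limma adjusted p = 0.0416). That call ended without any 1 of ES 2i lines 1, 2 and 3 or ES FCS lines 1, 2, 4 and 5 (adjusted p = 0.0549 to 0.157). It also ended without the batch term (adjusted p = 0.0504) and in a fit of only the ES groups (adjusted p = 0.0580). A sex term in each culture, which makes the fitted difference that of male lines, ended it too (adjusted p = 0.0879). With feeder marker level added to the fit the ES difference was −0.77 (SE 0.28) and not called (adjusted p = 0.0586). The EG 2i and EG 2is differences were then −0.68 and −0.78, also not called (adjusted p = 0.163 and 0.0956). All 3 were thus larger with this term, with wider SEs. Within batch 1 the ES difference was −0.64 (adjusted p = 0.0292) and within batch 2 −0.21 (adjusted p = 0.218).

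Ccnd3, the remaining D-type cyclin gene (chr17:47505051-47599689), was called in none of the 3 comparisons. It stood at 7.86, 8.25, 8.03 and 8.30 in EG 2i lines and 8.53, 8.37, 8.27 and 8.36 in EG 2is lines, against 7.75, 7.83, 8.498 and 8.496 in EG FCS lines. For ES 2i lines the values were 8.49, 8.16, 8.76, 7.90 and 8.05, against 8.52, 7.88, 8.49, 8.14 and 8.17 in ES FCS lines. The groups overlapped throughout, and the EG FCS lines split into a lower and a higher pair. The fitted difference was −0.09 in EG 2i lines (95% interval −0.51 to 0.34, limma adjusted p = 0.813), 0.21 in EG 2is lines (−0.20 to 0.62, limma adjusted p = 0.506) and 0.03 in ES 2i lines (−0.33 to 0.40, limma adjusted p = 0.924). These intervals leave room for differences of either sign. With feeder marker level added to the fit the differences were 0.75 (adjusted p = 0.158), 1.06 (adjusted p = 0.0395) and 0.80 (adjusted p = 0.0774), so that the sign turned in EG 2i lines and the EG 2is difference was called.

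Cdkn1b, the gene of p27 (chr6:134920401-134925525), was higher in 2i. Its log2 values were 7.71, 7.85, 7.57 and 8.37 in EG 2i lines and 8.63, 8.49, 8.36 and 8.04 in EG 2is lines, against 7.29, 7.58, 7.64 and 7.48 in EG FCS lines. The ES 2i lines had 8.28, 8.28, 8.26, 8.88 and 8.55, against 7.69, 7.84, 7.02, 7.62 and 7.61 in ES FCS lines. EG 2is and ES 2i lines stood wholly above the FCS lines of their origin, while EG 2i line 3 lay within the EG FCS range. Cdkn1b rose by 0.57 in EG 2i lines (SE 0.14, 1.48-fold, limma adjusted p = 0.00528), by 0.98 in EG 2is lines (SE 0.13, 1.97-fold, limma adjusted p = 2.05e-05) and by 0.89 in ES 2i lines (SE 0.12, 1.86-fold, limma adjusted p = 9.21e-06). The ES difference was 0.52 within batch 1 (adjusted p = 0.0398) and 1.15 within batch 2 (adjusted p = 6.34e-04). With feeder marker level added to the fit the EG 2i difference was 0.47 (SE 0.28) and not called (adjusted p = 0.306). Those in EG 2is and ES 2i lines were 0.88 and 0.81 and called (adjusted p = 0.0365 and 0.0288).

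The sex of the lines was uneven between EG 2i and EG FCS, and Cdkn1b differed by sex. Female lines lay lower on average than male lines of the same group (fitted log2 difference −0.38, SE 0.09, limma adjusted p = 0.0187). Not every line did, since female ES FCS line 1 (7.69) lay above male ES FCS lines 4 and 5 (7.62 and 7.61). Cdkn1b was the only member called for sex, where 3.62% of all genes were called. EG 2i holds 3 female lines and EG FCS 1, and without a sex term the EG 2i difference was 0.38 and not called (adjusted p = 0.160). With a sex term in each culture, where the fitted difference is that of male lines, it was 0.61 (limma adjusted p = 0.0116). The male EG 2i line had 8.37 against 7.48 to 7.64 in the male EG FCS lines, and the female EG 2i lines had 7.57 to 7.85 against 7.29 in the female EG FCS line. Each of these has 1 sample on a side and so carries no test. Fitted separately, female minus male was −0.42 in 2i and 2is lines (SE 0.11, limma adjusted p = 0.0362, 5.17% of genes called) and −0.32 in FCS lines (SE 0.14, limma adjusted p = 0.930, 0.0251% of genes called). Whether the sex difference itself differed between the cultures was not tested. A second Cdkn1b probe set, dimmer and not used in the fit, averaged 7.09 ± 0.27 in EG 2i, 7.31 ± 0.14 in EG 2is and 6.84 ± 0.12 in EG FCS lines (SD, n = 4 each). It averaged 7.43 ± 0.31 in ES 2i and 6.68 ± 0.19 in ES FCS lines (SD, n = 5 each). In each origin its 2i mean lay above the FCS mean, as with the brighter probe set, but EG FCS lay above ES FCS, where the brighter probe set had 7.50 ± 0.16 in EG FCS and 7.56 ± 0.31 in ES FCS lines.

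**Figure D3:**
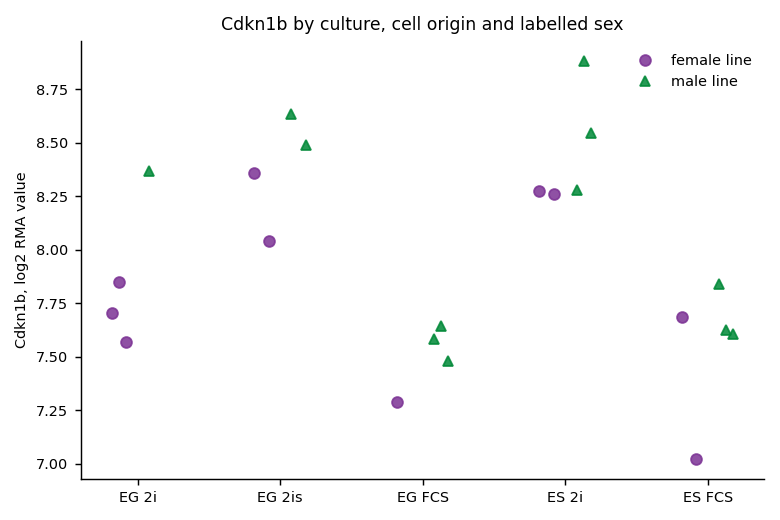
Log2 expression of Cdkn1b in each sample of EG 2i, EG 2is, EG FCS, ES 2i and ES FCS lines, with circles for female and triangles for male lines. The highest EG 2i point, 8.37, is the only male line of that group, and the lowest EG FCS point, 7.29, the only female one.

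Cdkn2a (chr4:89274473-89294619), whose transcripts encode the Cdk4 and Cdk6 inhibitor p16Ink4a and the p53 activator Arf, rose in 2i by less than Cdkn1b on the log2 scale. It stood at 6.59, 6.38, 6.30 and 6.45 in EG 2i lines and 6.74, 6.57, 6.48 and 6.62 in EG 2is lines, against 6.29, 5.89, 6.06 and 5.88 in EG FCS lines. ES 2i lines had 6.73, 6.71, 6.91, 6.98 and 6.83, against 6.24, 6.18, 6.18, 6.03 and 5.94 in ES FCS lines. No 2i or 2is sample overlapped the FCS samples of its origin, although the lowest EG 2i line, 6.30, and the highest EG FCS line, 6.29, nearly met. Cdkn2a rose by 0.37 in EG 2i lines (SE 0.10, 1.29-fold, limma adjusted p = 0.0110), by 0.55 in EG 2is lines (SE 0.10, 1.47-fold, limma adjusted p = 2.53e-04) and by 0.72 in ES 2i lines (SE 0.09, 1.65-fold, limma adjusted p = 2.73e-06). The EG 2i call ended without EG 2i line 4 (0.33, adjusted p = 0.0536), in a fit of only the groups compared (0.32, adjusted p = 0.0969) and with feeder marker level added to the fit (0.32, adjusted p = 0.350). The EG 2is call also ended with that term (0.50, adjusted p = 0.103), and the ES call did not (0.67, adjusted p = 0.0128). Within ES batches 1 and 2 the difference was 0.51 (adjusted p = 0.0208) and 0.86 (adjusted p = 6.98e-04). With 1 value for the gene, the parts of Ink4a and Arf transcripts are not told apart here.

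Cdkn2b, the gene of p15Ink4b next to Cdkn2a (chr4:89306289-89311032), differed little. Its values were 6.15, 6.49, 6.26 and 5.94 in EG 2i lines and 6.25, 6.07, 6.12 and 6.36 in EG 2is lines, against 6.08, 5.92, 5.78 and 5.85 in EG FCS lines. For ES 2i lines the values were 6.002, 6.05, 6.07, 6.05 and 6.25, against 6.10, 5.91, 6.05, 5.89 and 5.83 in ES FCS lines. The groups overlapped in each pair. In EG 2is lines Cdkn2b rose by 0.26 (SE 0.09, 1.20-fold, limma adjusted p = 0.0431), a call that ended without EG 2is line 1, 2 or 4 or without any 1 of the 4 EG FCS lines (adjusted p = 0.0549 to 0.145). It also ended after quantile normalization again (adjusted p = 0.0647), with an intensity trend (adjusted p = 0.0597), in a fit of only the groups compared (adjusted p = 0.0614), in batch 1 alone (adjusted p = 0.0661) and with feeder marker level added (0.24, adjusted p = 0.468). The EG 2i difference was 0.24 (95% interval 0.04 to 0.43, limma adjusted p = 0.0831), and it was called without EG 2i line 4 (0.32, adjusted p = 0.0350) and without the sex term (0.30, adjusted p = 0.0328). The ES difference was 0.13 (95% interval −0.04 to 0.30, limma adjusted p = 0.271).

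Across the culture comparisons, Ccnd2, Ccne1 and Ccne2 were lower and Cdkn2a higher in 2i with no overlap between groups in EG 2i against EG FCS lines, where 24.2% of all genes did not overlap. In EG 2is against EG FCS and in ES 2i against ES FCS lines Cdkn1b joined them, so that 5 of 8 members did not overlap, against 24.5% and 22.2% of all genes. The median fitted difference of the 8 members was −0.17 in EG 2i, −0.07 in EG 2is and −0.18 in ES 2i lines, against 0.01, −0.01 and 0.00 over all genes. Members of opposite role fell and rose, so these medians lie near 0.

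The mean of the feeder fibroblast markers was lower in 2i, where no feeder layer was used. Of 20 measured feeder fibroblast markers, 12 fell and 0 rose in EG 2i, 13 fell and 0 rose in EG 2is, and 14 fell and 2 (Sparc and Timp1) rose in ES 2i lines. Their mean level was 5.39 to 5.51 in EG 2i and 5.36 to 5.50 in EG 2is lines, against 6.01 to 6.78 in EG FCS lines. In ES 2i lines it was 5.30 to 5.55, against 6.02 to 6.69 in ES FCS lines. The groups did not overlap, and 7 of 20 markers in EG 2i lines (Col5a2, Lum, Dcn, Tagln, Postn, Lox and Fap) had a mean under background, against 3 in EG FCS lines. In EG 2is lines 9 were under background, and in ES 2i lines 9, against 2 in ES FCS lines. In EG 2i the largest falls from EG FCS means were Acta2 (9.52 to 5.04), Thbs1 (9.56 to 5.44) and Tagln (6.82 to 4.58). Timp1 (8.66 to 9.02), Pdgfrb (5.16 to 5.46) and Fap (4.49 to 4.51) had higher means in EG 2i. Whether the marker level follows feeder cells alone was not tested. In 2i and 2is lines the markers had little range left, so a term for their level rests mainly on the FCS lines. With it, 1 of 8 members was called in EG 2i lines (Ccne1, −1.75), where 15.7% of all genes were called in that fit. In EG 2is lines 4 were called, against 16.9% of all genes, and in ES 2i lines 4, against 20.1%, so calls were fewer over all genes as well. In EG 2i lines the term widened the SE from 0.14 to 0.28 for Cdkn1b and from 0.10 to 0.20 for Cdkn2a. For Ccnd2 the SE went from 0.19 to 0.37. A call lost with the term can thus reflect a wider interval and not only a smaller difference.

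Within the 9 FCS lines the level of each member was set against the feeder marker mean. Ccnd3 gave Pearson r = 0.80 (exact permutation p = 0.0125, adjusted p = 0.100 over 8 members) and Spearman rho = 0.73 (exact permutation p = 0.0311, adjusted p = 0.0830), and r was 0.73 without the 2 lines farthest from the median feeder level. Ccne1 gave r = −0.73 (exact permutation p = 0.0262, adjusted p = 0.105) and rho = −0.75 (exact permutation p = 0.0255, adjusted p = 0.0830), and r was −0.45 without those 2 lines. Leaving them out also narrows the range of feeder level, so the weaker r cannot show whether the relation rests on them. Ccnd2 gave r = 0.65 (exact permutation p = 0.0647, adjusted p = 0.172) and rho = 0.63 (exact permutation p = 0.0760, adjusted p = 0.152), and r was 0.29 without those 2 lines. Ccnd1 gave r = −0.52 (exact permutation p = 0.142, adjusted p = 0.228) and rho = −0.77 (exact permutation p = 0.0214, adjusted p = 0.0830), and r was −0.45 without them. Ccne2 gave r = 0.55 (exact permutation p = 0.130, adjusted p = 0.228) and rho = 0.50 (exact permutation p = 0.178, adjusted p = 0.284), and r was 0.81 without them. Cdkn1b gave r = −0.32 (exact permutation p = 0.404, adjusted p = 0.539) and rho = −0.23 (exact permutation p = 0.552, adjusted p = 0.736), and r was −0.67 without them. For Cdkn2a and Cdkn2b r was 0.12 and 0.20 (exact permutation p = 0.742 and 0.606, adjusted p = 0.742 and 0.693). None of the 8 relations passed adjustment. In the 6 FCS lines of batch 1, r was 0.84 for Ccnd3, −0.71 for Ccne1, 0.78 for Ccnd2, −0.62 for Ccnd1, 0.61 for Ccne2 and −0.28 for Cdkn1b, and the 3 FCS lines of batch 2 are too few for a value. The part of feeder cells in the culture differences was not tested beyond these values.

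**Figure D4:**
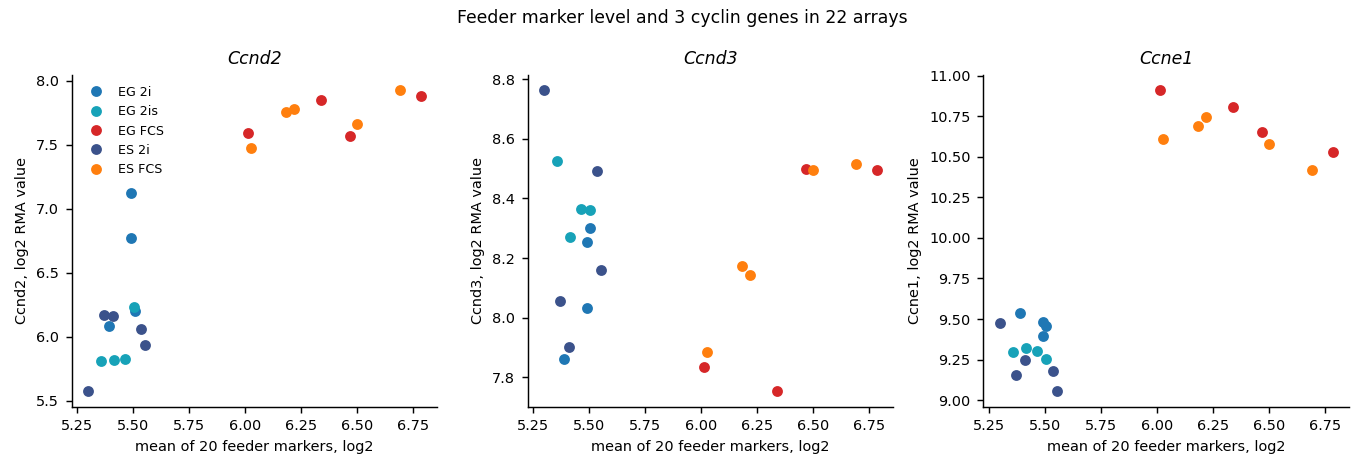
Log2 expression of Ccnd2, Ccnd3 and Ccne1 (y axes) against the mean log2 level of 20 feeder fibroblast markers (x axis) in 22 samples, coloured by group. The 2i and 2is samples lie between 5.30 and 5.55 on the x axis and the FCS samples between 6.01 and 6.78, and within the FCS samples Ccnd3 is higher where the marker level is higher.

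Comparisons between the groups in 2i and between origins asked whether the route of derivation or the cell of origin relates to these levels. EG 2i and EG 2is lines showed 0 of 8 members called, and 0% of all genes were called by limma. At an unadjusted p under 0.05 2 members passed, Ccnd2 (0.60, adjusted p = 0.258) and Cdkn1b (−0.41, adjusted p = 0.279), and 2116 of all genes did. Ccne1 was the only member whose groups did not overlap (9.40 to 9.54 in EG 2i against 9.25 to 9.32 in EG 2is lines), where 4.31% of genes did not overlap, and its fitted difference was 0.17 (95% interval −0.0037 to 0.34, limma adjusted p = 0.477).

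EG FCS and ES FCS lines also showed 0 of 8 members called, with 0.01% of all genes called. At an unadjusted p under 0.05 these were Ccne1 (0.22, adjusted p = 0.998) and Ccne2 (0.19, adjusted p = 0.999), among 979 genes. The interval of the difference was −0.03 to 0.69 for Ccnd1, −0.40 to 0.45 for Ccnd2, −0.48 to 0.14 for Cdkn1b and −0.28 to 0.17 for Cdkn2a. For Ccne1 and Ccne2 it was 0.04 to 0.41 and 0.0010 to 0.38. Moderate differences thus remain possible, in either direction for Ccnd2 but mostly toward higher EG values for Ccnd1 and lower ones for Cdkn1b. All EG lines were in batch 1, with 2 ES lines of each culture, so these fitted differences lean on a batch term estimated from ES lines alone.

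Between EG 2i and ES 2i lines 2 of 8 members were called, where 3.72% of all genes were called. Ccne1 averaged 9.47 ± 0.06 in EG 2i lines (SD, n = 4) and 9.22 ± 0.16 in ES 2i lines (SD, n = 5), with a fitted difference of 0.34 (SE 0.09, limma adjusted p = 0.0418). Cdkn2a averaged 6.43 ± 0.12 in EG 2i and 6.83 ± 0.12 in ES 2i lines, with a fitted difference of −0.41 (SE 0.11, limma adjusted p = 0.0381). Neither call was firm. That of Ccne1 ended without any 1 of EG 2i lines 1, 3 and 4 or ES 2i lines 1, 2, 4 and 5 (adjusted p = 0.0548 to 0.123), and that of Cdkn2a without EG 2i line 2 or 3 or ES 2i line 1, 2, 4 or 5 (adjusted p = 0.0501 to 0.108). In batch 1 alone the differences were 0.35 (adjusted p = 0.120) and −0.30 (adjusted p = 0.241). Cdkn1b differed by −0.50 (adjusted p = 0.0645) and was called without EG 2i line 4 (−0.59, adjusted p = 0.0452), without ES 2i line 2 (−0.70, adjusted p = 0.0132), without the batch term (−0.44, adjusted p = 0.0353) and with arrays centred on their medians (−0.53, adjusted p = 0.0440). Ccnd2 differed by 0.54 (adjusted p = 0.147) and was called without EG 2i line 1 (0.70, adjusted p = 0.0491).

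EG 2is against ES 2i lines gave 0 of 8 members called, against 0.0451% of all genes. Ccnd1 (0.36, adjusted p = 0.524) and Ccne2 (0.20, adjusted p = 0.484) passed only an unadjusted p of 0.05, as did 1872 of all 19938 genes. The difference between the EG culture response (EG 2i against EG FCS, without EG 2is lines) and the ES culture response was called for 0 of 8 members, against 1.44% of all genes. Cdkn2a was the only member at an unadjusted p under 0.05, where 3149 of all 19938 genes were. It rose less in EG 2i than in ES 2i lines in the fit (difference of responses −0.35, SE 0.13, limma adjusted p = 0.187). The interval of the difference of responses was −0.02 to 1.05 for Ccnd2, −0.71 to 0.05 for Cdkn1b and −0.12 to 0.35 for Ccne1.

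The order of the 5 groups was read for each member from group means, with neighbours counted as apart where the gap exceeded the larger of their SDs. These means were not adjusted for sex or batch. For Ccne1 EG FCS (10.73 ± 0.17) and ES FCS (10.61 ± 0.13) were not apart, then followed EG 2i (9.47 ± 0.06), EG 2is (9.29 ± 0.03) and ES 2i (9.22 ± 0.16), of which EG 2is and ES 2i were not apart. Ccnd2 had EG FCS (7.72 ± 0.16) and ES FCS (7.72 ± 0.17) together, then EG 2i (6.55 ± 0.49) apart from both sides, then ES 2i (5.98 ± 0.25) and EG 2is (5.92 ± 0.21) together. In Ccne2 the only gap lay between ES FCS (7.56 ± 0.14) and EG 2is (7.06 ± 0.10), and in Cdkn1b between EG 2is (8.38 ± 0.25) and EG 2i (7.87 ± 0.35). The fit with a sex term, however, called Cdkn1b in EG 2i against EG FCS lines (0.57) and not in EG 2i against EG 2is lines (−0.41, limma adjusted p = 0.279). For Cdkn2a the order was ES 2i (6.83 ± 0.12), EG 2is (6.60 ± 0.11), EG 2i (6.43 ± 0.12), ES FCS (6.11 ± 0.12) and EG FCS (6.03 ± 0.19), with only the last pair not apart. Cdkn2b had 1 gap, between ES 2i (6.08 ± 0.10) and ES FCS (5.96 ± 0.11), and Ccnd1 and Ccnd3 had none.

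The genes whose values followed each member most closely over the 22 arrays were named by Pearson r, as a description. Ccne1 was followed by Slc39a14 (r = 0.98), Srf (0.98) and Klhl21 (0.98), and Ccne2 by Spry4 (0.95), Myc (0.94) and Chrna9 (0.94). Ccnd2 was followed by S100a6 (0.96), Rassf3 (0.95) and Ubald1 (0.94), Ccnd1 by Mest (0.85), Dpp9 (0.83) and Stk4 (0.82), and Ccnd3 by Mov10 (0.87), B4galt1 (0.83) and Pim1 (0.82). For the inhibitors these were Creb3l2 (0.93), Tm7sf2 (0.93) and Rpap1 (0.91) beside Cdkn1b, Stat2 (0.92), Fads6 (0.92) and Rufy2 (0.92) beside Cdkn2a, and Il13ra1 (0.87), Slc27a4 (0.85) and Tsc1 (0.85) beside Cdkn2b. The 22 arrays share 5 groups, 2 cultures and 2 batches, so these values describe the arrays and are not tests.

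Genes that act beside the members were counted by list. Over all genes 11.4% rose and 12.5% fell in EG 2i, 12.7% rose and 12.9% fell in EG 2is, and 16.6% rose and 14.9% fell in ES 2i lines. Against these shares 1 or 2 called genes in a list of 4 to 16 describe those genes and not the list. Among 13 pocket protein and E2F genes, 2 rose and 4 fell in EG 2i, 2 rose and 4 fell in EG 2is, and 2 rose and 6 fell in ES 2i lines. E2f8, an atypical E2F repressor, fell in all 3, with log2 differences of −1.45 in EG 2i (limma adjusted p = 7.25e-08), −1.45 in EG 2is (limma adjusted p = 2.37e-08) and −1.30 in ES 2i lines (limma adjusted p = 1.22e-08). The related repressor E2f7 fell, with −0.71 in EG 2i (limma adjusted p = 2.09e-04) and −0.68 in ES 2i lines (limma adjusted p = 2.95e-05), and E2f4, which works with pocket proteins, fell by 0.72 in EG 2i lines (limma adjusted p = 3.62e-05). Rbl1, the pocket protein p107, rose by 0.92 in ES 2i lines (limma adjusted p = 2.39e-07). Of 16 measured G1/S genes downstream of E2F, 7 fell in EG 2i, 6 in EG 2is and 3 in ES 2i lines, and 0 rose in any, where the 3 in ES 2i lines are near the share over all genes. The uracil-DNA glycosylase gene Ung fell, with −0.65 in EG 2i and −0.43 in ES 2i lines (limma adjusted p = 6.17e-06 and 4.07e-05), as did the sliding clamp gene Pcna, with −0.40 and −0.17 (limma adjusted p = 5.28e-04 and 0.0404). The licensing factor gene Cdt1 fell, with −0.32 and −0.20 (limma adjusted p = 3.95e-04 and 0.00367). The median of this list was −0.24 in EG 2i and −0.10 in ES 2i lines.

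Among 6 genes of the cyclin-dependent kinases and their activating kinase, 1 rose and 1 fell in EG 2i and in EG 2is, and 1 rose and 0 fell in ES 2i lines. Cdk2, the partner of E-type cyclins, rose by 0.38 in EG 2i (limma adjusted p = 0.00665), 0.68 in EG 2is (limma adjusted p = 1.61e-05) and 0.78 in ES 2i lines (limma adjusted p = 5.28e-07), opposite to Ccne1 and Ccne2. Cdk7, a subunit of the activating kinase, fell by 0.21 in EG 2i lines (limma adjusted p = 0.0486). Of 6 measured genes of the degradation of G1 regulators, 3 fell in EG 2i, 2 in EG 2is and 2 in ES 2i lines, with 0 rising. Skp2, the ubiquitin ligase subunit that recognises p27 for degradation, fell in all 3, with −0.78 in EG 2i (limma adjusted p = 1.52e-06), −0.91 in EG 2is (limma adjusted p = 1.05e-07) and −0.50 in ES 2i lines (limma adjusted p = 1.61e-05). Its cofactor Cks1b fell, with −1.03 in EG 2i and −0.59 in ES 2i lines (limma adjusted p = 3.28e-06 and 1.10e-04). The ligase scaffold Cul4a fell by 0.31 in EG 2i lines (limma adjusted p = 0.0444).

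Of 4 other CDK inhibitor genes measured, 1 rose and 0 fell in EG 2i, 1 rose and 1 fell in EG 2is, and 0 rose and 1 fell in ES 2i lines. Cdkn2c, the gene of p18Ink4c, rose by 0.53 in EG 2i lines (limma adjusted p = 0.00221), and Cdkn1c, the imprinted gene of p57, fell, with −0.93 in EG 2is and −1.004 in ES 2i lines (limma adjusted p = 7.64e-04 and 7.83e-05). Of 9 measured genes of p53 and its targets, 2 rose and 1 fell in EG 2i, 2 rose and 2 fell in EG 2is, and 1 rose and 3 fell in ES 2i lines. Pmaip1 (Noxa), a pro-apoptotic target, fell, with −1.44 in EG 2i and −1.17 in ES 2i lines (limma adjusted p = 0.00294 and 0.00272). Ccng1 rose by 0.29 and 0.28 (limma adjusted p = 0.00956 and 0.00290). Trp53inp1 rose by 0.53 in EG 2i lines (limma adjusted p = 0.00253) and Bbc3 (Puma) fell by 0.55 in ES 2i lines (limma adjusted p = 3.79e-04). Of 7 genes known to repress the Ink4 locus, 2 rose and 2 fell in EG 2i, 2 rose and 1 fell in EG 2is, and 2 rose and 0 fell in ES 2i lines. The Polycomb genes Bmi1 and Suz12 rose by 0.53 and 0.45 in EG 2i lines (limma adjusted p = 6.50e-04 and 0.00362) and by 0.84 and 0.30 in ES 2i lines (limma adjusted p = 4.50e-07 and 0.0139). Cbx7, another Polycomb gene, fell by 0.37 in EG 2i lines (limma adjusted p = 0.0164).

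Of 4 measured S and M phase cyclin genes and Cdk1, 1 fell in EG 2i and in EG 2is lines and 0 in ES 2i lines, and 0 rose. Ccnb2, a mitotic cyclin, fell by 0.64 in EG 2i lines (SE 0.09, limma adjusted p = 4.00e-05) and differed by −0.02 in ES 2i lines (limma adjusted p = 0.902), and the difference between these responses was −0.62 (SE 0.12, limma adjusted p = 0.0151). Of 8 proliferation markers 2 fell in EG 2i (Mki67, −0.40, and Cdc20, −0.32), 3 in EG 2is and 3 in ES 2i lines (Cdc20, −0.46, Mki67, −0.36, and Bub1, −0.31), and 0 rose. Their mean level was 9.75 in EG 2i and 9.75 in EG 2is, against 9.85 in EG FCS lines, and 9.76 in ES 2i against 9.88 in ES FCS lines. How far cell cycle distribution differed between the cultures was not measured in these samples. Between EG 2i and ES 2i lines Ccnb2 differed by −0.51 (limma adjusted p = 0.00723), the replication origin gene Orc1 by −0.44 (limma adjusted p = 0.0246) and Trp53inp1 by 0.47 (limma adjusted p = 0.0427).

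**Figure D5:**
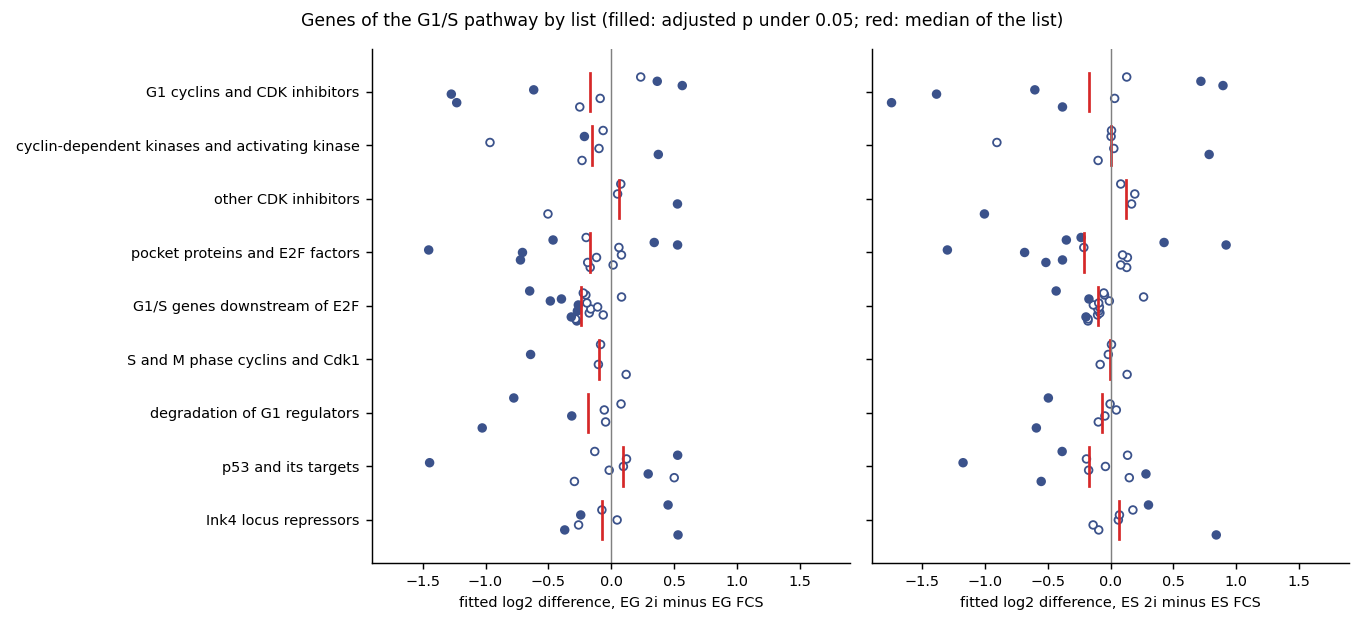
Fitted log2 differences of the genes of each pathway list, with 1 point per gene and a red line at the list median, for EG 2i minus EG FCS and ES 2i minus ES FCS. In the G1/S list downstream of E2F the median is −0.24 in EG 2i and −0.10 in ES 2i lines, and E2f8 is the lowest point among the pocket protein and E2F genes in both.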

How the data were processed

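The deposited values are log2 expression values that the authors made by RMA, 1 per probe set and sample. Per the submitters' processing notes the tools were Affymetrix Expression Console, limma and RMA. Their versions are not given in the sources used here. The RMA step subtracts background, makes the arrays' distributions equal by quantile normalization and fits 1 value to the probes of each probe set. No source used here says whether the authors adjusted for batch.

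Of 28853 probe sets 21789 carried 1 gene symbol in the platform annotation, 1621 several and 5443 none, and only the 21789 were used, which leaves out Cdkn1a. Entrez IDs of 21698 were found in the GRCm38.p6 gene table, and 0 symbols changed. Where a gene had several probe sets, the brightest by its mean over the arrays was kept and 1851 others were dropped, for 19938 genes.

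All 22 arrays were fitted with limma 3.58.1 in R 4.3.3 (lmFit, eBayes), with terms for group, labelled batch (16 and 6 arrays) and labelled sex. Tests were two-sided, and p-values were adjusted over all genes by Benjamini-Hochberg, with a call under 0.05. Intervals are 95% intervals of the fitted difference. The fit was tested on simulated data. Exact permutation tests used scipy 1.17.1 and numpy 2.4.6 under Python 3.11.15, and figures matplotlib 3.10.9.

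All members are named. Of each pathway list up to 3 called genes with the smallest adjusted p are named in EG 2i against EG FCS and ES 2i against ES FCS, and up to 1 in other comparisons. Members and lists were chosen with earlier results of these data known. Alternatives were other covariates, quantile normalization again, centring on medians, an intensity trend, only genes above background, the mean of a gene's probe sets, only the groups compared, a replicate block, single batches, feeder marker level added to the fit, and each replicate left out.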

Additional observations from a re-analysis of the deposited data

Results flagged for a closer look

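Of 40 member and group combinations tested, 3 held a sample far from the rest of its group, and chance gives about 1 in 20. Ccnd2 in EG 2is line 4 was at 6.23, against 5.81 to 5.83 in the other 3 lines, and the gap took 0.955 of the group's range. Cdkn1b in ES FCS line 3 was at 7.02, below the other 4 at 7.61 to 7.84, with a gap of 0.713 of the range. Cdkn2b in ES 2i line 5 was at 6.25, above the other 4 at 6.002 to 6.07, with a gap of 0.717 of the range. Without that line, no call of the same member changed in EG 2is against EG FCS lines for Ccnd2 or in ES 2i against ES FCS lines for Cdkn1b and Cdkn2b.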

How the results depend on the processing

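Over 64 member comparisons, 1384 recomputed values turned direction 44 times, and 0 of these concerned the 19 called values, whose calls were kept in 339 of 398. Counts of called members changed by over 1.5 times in 2 comparisons. In EG 2i against EG FCS lines 1 member was called with feeder marker level added to the fit, where 15.7% of all genes were (23.9% as reported). In EG 2i against ES 2i lines 1 was called with a sex term in each culture, after quantile normalization again or with an intensity trend (3.06%, 2.92% and 3.23% of all genes), 0 with only the groups compared (0.0752%) or in batch 1 alone (1.01%), and 0 to 2 without single replicates. The cause was not tested.

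Directions turned only among values that were not called. Ccnd3 became 0.16 with only the groups compared and 0.75 with the feeder term in EG 2i against EG FCS, and −0.025 after quantile normalization again and −0.030 in batch 2 in ES lines. In EG 2i against EG 2is lines Cdkn2b became 0.0095 without the sex term and Ccne2 0.012 after quantile normalization. Cdkn2b became 0.0030 in EG FCS against ES FCS with a sex term in each culture. Cdkn1b became 0.10 in EG 2is against ES 2i with only the groups compared or in batch 1. For the difference of responses, Ccne2 became 0.050 after quantile normalization and 0.014 with the feeder term, Cdkn2b −0.044 with the replicate block and Cdkn1b 0.023 in batch 1. Without single replicates Ccnd3 ranged −0.33 to 0.028 in EG 2i, −0.0069 to 0.33 in EG 2is and −0.10 to 0.13 in ES 2i against FCS lines. In EG 2i against EG 2is, Cdkn2b ranged −0.10 to 0.051, Ccne2 −0.070 to 0.030 and Ccnd1 −0.016 to 0.17. In EG FCS against ES FCS, Ccnd3 ranged −0.27 to 0.14, Cdkn2b −0.039 to 0.032, Ccnd2 −0.094 to 0.11 and Cdkn2a −0.15 to 0.011. For the difference of responses, Ccne2 ranged −0.089 to 0.040, Ccnd3 −0.36 to 0.057 and Ccnd1 −0.0085 to 0.23.

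For same-numbered samples, r of deviations was −0.13 to 0.07 for EG 2i with EG FCS, against −0.22 to 0.20 for other numbers. For ES it was −0.01 to 0.24 (mean 0.10), against −0.36 to 0.25 (mean −0.02) for other numbers. These ranges overlap and cannot settle whether ES lines were shared, and numbers were not taken as pairs in the main fit. With a replicate block, members called were 4 in EG 2i, 7 in EG 2is and 5 in ES 2i against FCS, where 9.67%, 26.5% and 29.6% of all genes were called. They were 0 between EG 2i and EG 2is and 0 for the difference of responses. Against EG FCS, labelled sex differs at numbers 1, 3 and 4 in EG 2is and at numbers 2 and 3 in EG 2i. By these labels the block joins different lines in EG, so its EG results describe only that fit. The block ended the calls of Cdkn2a in EG 2i (adjusted p = 0.0799), Cdkn2b in EG 2is (adjusted p = 0.0529) and Ccnd1 in ES 2i lines (adjusted p = 0.0601). It added calls of Ccnd1 (adjusted p = 0.0212) and Ccnd3 (0.36, adjusted p = 0.0162) in EG 2is lines. EG against ES comparisons had no such fit, since numbers lie within an origin. Group levels moved by 1 SD or more in 0 of 80 recomputations.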

Other observations

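The members differed in how much lines of the same group spread. The residual SD of the fit was 0.30 for Ccnd3, 0.29 for Ccnd2 and 0.24 for Ccnd1, at the 94.8, 93.8 and 89.3 percentile of all 19938 genes, whose median was 0.13. Cdkn1b followed with 0.20 (percentile 82.8). The E-type cyclins had 0.11 each (percentile 35.8 for Ccne1 and 36.9 for Ccne2), and Cdkn2a and Cdkn2b had 0.14 and 0.13. Pooled over groups, the 3 D-type cyclins thus varied more between lines than most genes, and the E-type cyclins did not. The genes compared include those with a mean under background. Groups differed, with an SD for Ccnd2 of 0.49 in EG 2i against 0.16 to 0.25 in the other groups. Ccnd3 had 0.11 in EG 2is lines against 0.20 to 0.41 in the others. Ccnd1 stood at 10.29 to 10.38 in ES FCS lines, an SD of 0.04 against 0.37 in ES 2i lines.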
